A study of Homo sapiens with 18 samples.

Results

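The response to dexamethasone (Dex, a synthetic glucocorticoid) was compared between MDA-MB-231 cells depleted of HP1γ and control cells by RNA-seq. MDA-MB-231 is an established human breast cancer line of triple-negative type. The comparison was chosen by its labels and not by any measured value: it takes the 12 of 18 libraries of the series that carried either a nonspecific siRNA (siNS) or a SMART-pool siRNA against HP1γ (siHP1γ), each with 3 libraries given 100 nM Dex for 8 h and 3 given the vehicle ethanol (Eth). The other 6 libraries carried a SMART-pool siRNA against the arginine methyltransferase PRMT5 (siPRMT5), again 3 with Dex and 3 with Eth. The quantity tested for each gene was the interaction term, that is the log2 Dex response in siHP1γ cells minus the log2 Dex response in siNS cells. A term below 0 means that Dex raised the gene less, or lowered it more, after HP1γ depletion. The term passed the test, an adjusted p under 0.05, for 61 of 15298 genes tested, or 0.399% of them.

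Glucocorticoids bind the glucocorticoid receptor (GR), a transcription factor that enters the nucleus with its ligand and both activates and represses genes. It activates genes largely through direct contact with DNA elements, and many of the genes it represses are targets of AP-1 and NF-κB. HP1γ, the product of CBX3, is a chromatin protein that binds methylated lysine 9 of histone H3 and is also found on transcribed genes. As models these groups are limited by their making: the siRNAs against HP1γ and PRMT5 are mixtures given transiently to 1 cell line, and bulk RNA was measured, so that fewer cells of a type and less RNA per cell cannot be told apart. The paper calls the 3 replicates biological, but neither it nor the labels say whether they were separate cultures. The p-values therefore measure only the spread between these libraries.

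The siRNA target was checked first. In siNS cells CBX3 stood at 274, 234 and 258 CPM (counts divided by the scaled library total) with Eth and at 220.4, 241 and 229 CPM with Dex. In siHP1γ cells it stood at 9.23, 9.91 and 10.5 CPM with Eth and at 15.8, 13.98 and 11.4 CPM with Dex. The siNS and siHP1γ libraries did not overlap, and 3.87% of the siNS level was left with Eth and 5.96% with Dex. In siHP1γ cells all 3 Dex libraries of CBX3 lay above the 3 Eth libraries (10.1% of genes tested do so). Its Dex response there was log2 0.48 ± 0.13 (SE, edgeR adjusted p = 0.0273), so that somewhat more was left with Dex. The interaction term of CBX3 was 0.63 ± 0.15 (SE, edgeR adjusted p = 0.068), which did not pass. NR3C1, which encodes GR, averaged 148 CPM with Eth and 127 CPM with Dex in siNS cells, and 137 and 131 CPM in siHP1γ cells. Its term was 0.16 ± 0.13 (SE, edgeR adjusted p = 0.551), with a 95% interval of -0.10 to 0.42. The term of PRMT5 was -0.09 ± 0.11 (SE, edgeR adjusted p = 0.698). Its level was lower in siHP1γ than in siNS cells under both treatments, with no overlap of libraries. It was 83.9% of the siNS level with Eth (edgeR adjusted p = 0.0111) and 78.7% with Dex (edgeR adjusted p = 0.00123). In siPRMT5 cells PRMT5 itself stood at 8.37, 7.75 and 6.10 CPM with Eth and 11.5, 10.6 and 9.39 CPM with Dex, against 226, 262 and 259 and 244, 247 and 226 CPM in siNS cells, so that both siRNAs lowered their target in every library.

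The 12 libraries held 9192643 to 12327634 counts each. Base composition set 2 libraries apart: the mean GC content of genes weighted by their CPM was 46.7% in siNS Eth replicate 1 and 46.7% in siHP1γ Dex replicate 1, against 47.1% to 47.7% in the other 10 libraries. One of these libraries is a control without Dex and the other an HP1γ-depleted library with Dex, so that both enter the interaction term with the same sign. The siPRMT5 libraries, which share the fit, had 47.0% to 47.4% with Eth and 46.6% to 47.2% with Dex. None of them was left out in the alternative below. The genes with a term that passed differed in GC content too. The 18 above 0 had a median GC of 39.8% (17 with a value), the 43 below 0 had a median of 52.3% (42 with a value), and all genes tested had a median of 47.5%. The part of base composition in the results was not tested, and the counts and the genes with the largest terms are therefore also given without these 2 libraries and with an offset for GC content and transcript length, both chosen after the data had been seen.

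**Figure D1:**
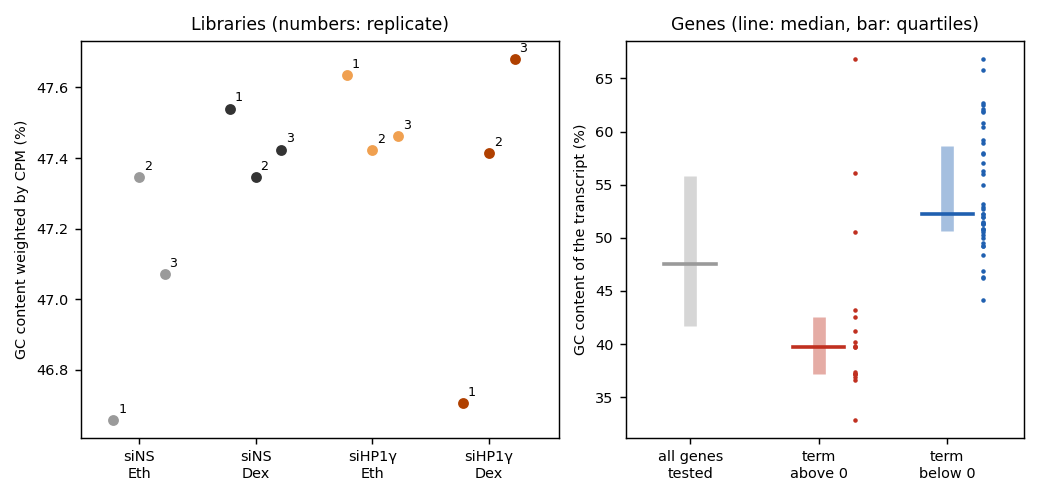
Left, CPM-weighted GC content (%) of the 12 libraries by group, 1 point per library marked with its replicate number. Right, GC content (%) of all genes tested and of the genes whose term passed, with dots for single genes, a line at the median and a bar over the quartiles. The first replicates of siNS Eth and siHP1γ Dex lie at 46.7%, below the other 10 libraries, and the medians on the right are 47.5% for all genes, 39.8% for the genes above 0 and 52.3% for those below 0.

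Of the 61 genes, 18 had a term above 0 (0.118% of genes tested) and 43 a term below 0 (0.281%). The size of the terms ran from 0.39 to 1.84 on the log2 scale with a median of 0.65, while the median term over all genes tested was -0.01. A change of at least 1.5-fold in the response was reached by 39 genes and of at least 2-fold by 7. The count rested on single libraries. Leaving out 1 library at a time gave 20 genes without siNS Eth replicate 1 and 186 without siNS Eth replicate 2. It gave 25 without siNS Eth replicate 3, 24 without siNS Dex replicate 1, 24 without siNS Dex replicate 3, 26 without siHP1γ Eth replicate 1 and 24 without siHP1γ Eth replicate 3. Of the 61 genes, 18 passed in all 12 of these fits and the other 43 lost the call in at least 1. The 18 were ESM1, HAS2 and ADAMTS6 above 0 and VSTM2L, AL596244.1, TSC22D3, RGCC, PLAT, SDC3, LTBP1, AKAP12, FN1, HEG1, DDIT4, ABLIM3, MT1E, UCP2 and GALNT10 below 0. Without the 2 libraries of lowest GC content 27 genes passed (6 above 0 and 21 below 0), 24 of them among the 61. With the GC and length offsets 75 passed, 37 above 0 (49.3%, against 29.5% before) and 38 below 0, and 39 of the 61 were among them.

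Dex alone changed 414 genes in siNS cells (2.71% of genes tested) and 255 in siHP1γ cells (1.67%), at an adjusted p under 0.01 and at least 1.5-fold. In siNS cells 252 genes were induced (1.65%) and 162 repressed (1.06%), and in siHP1γ cells 154 were induced (1.01%) and 101 repressed (0.660%). Of the 43 genes below 0, 33 were called induced in siNS cells and 16 of these were still called induced in siHP1γ cells. Their median Dex response was log2 1.02 in siNS cells and 0.43 in siHP1γ cells. Of the 18 genes above 0, 11 were called repressed in siNS cells and 3 of these also in siHP1γ cells, with medians of log2 -0.97 and -0.36. No gene of the 61 was called changed by Dex in siHP1γ cells alone, and 17 were called in neither. The term contains the siNS response, so these counts describe the genes and are no second test. The 3 Dex libraries lay above the 3 Eth libraries of siNS cells for 42 of the 43 genes (14.6% of all genes tested do so), and for 26 of the 43 in siHP1γ cells (10.1%). They lay below them for all 18 genes above 0 in siNS cells (13.3%) and for 9 of the 18 in siHP1γ cells (11.7%). In siHP1γ cells the Dex libraries lay on the opposite side for others, above the Eth libraries for 7 of the 18 genes and below them for 8 of the 43.

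**Figure D2:**
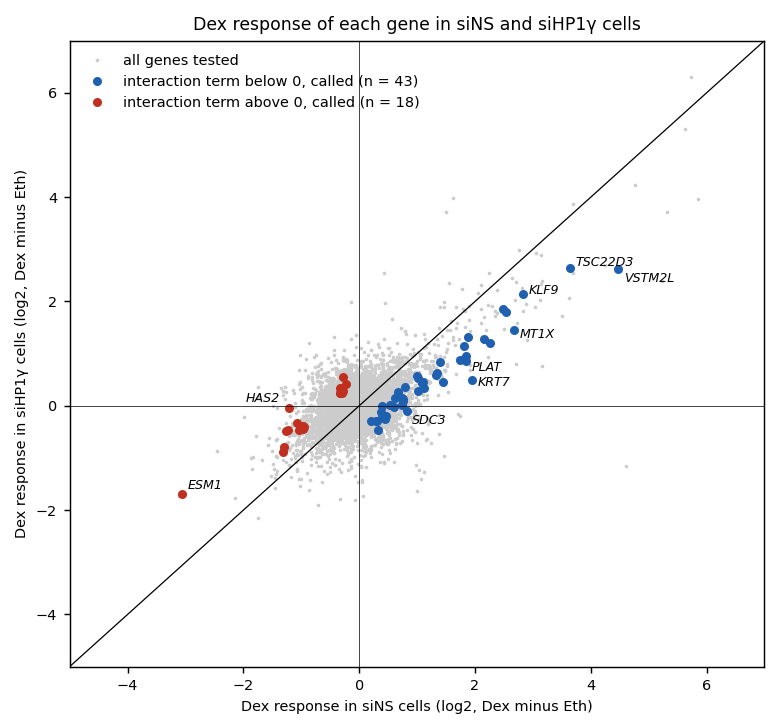
Log2 Dex response in siNS cells (x) against siHP1γ cells (y), 1 point per gene tested, with the diagonal marking equal responses. The 43 genes with a term below 0 (blue) lie under the diagonal, mostly at positive responses with medians of 1.02 and 0.43, and the 18 above 0 (red) lie over it, mostly at negative responses with medians of -0.97 and -0.36. The axes are the 2 responses whose difference chose the colours.

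Some genes long known to be induced by glucocorticoids were induced less after HP1γ depletion. Of 36 listed genes 33 were tested, and the terms of TSC22D3, PER1, KLF9, SGK1, DDIT4 and BCL6, 6 in all, passed below 0 and 0 above 0. Over all genes tested 43 of 15298 passed below 0 and 18 above 0. At an unadjusted p under 0.05 the list had 15 below 0 and 0 above 0 (45.5% of its genes, against 17.2% of all genes), and DESeq2 called 9 and 0 (27.3%, against 1.95%). The median term of the 33 was -0.25 and 26 of them were below 0, against a median of -0.01 and 7900 of 15298 for all genes tested. Their median Dex response was log2 1.01 in siNS cells and 0.66 in siHP1γ cells, with 21 and 18 called induced. Without the 2 libraries of lowest GC content 5 passed with a median of -0.30, and with the offsets 8 passed with a median of -0.19. The list was drawn up with earlier results of these data known. Over all genes tested 252 were called induced in siNS cells, and 33 of these passed below 0. The shares above therefore describe the list and are no test of it.

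TSC22D3, which encodes the glucocorticoid-induced leucine zipper and lies at chrX:107713221-107777342, minus strand (hg38), stood at 19.8, 17.8 and 19.4 CPM with Eth and 238, 198 and 271 CPM with Dex in siNS cells. In siHP1γ cells it stood at 21.6, 21.2 and 21.7 CPM with Eth and 127, 128 and 147 CPM with Dex. With Eth the siHP1γ libraries lay just above the siNS libraries, while with Dex all 3 lay below the lowest siNS library. Dex raised it 12.4-fold in siNS cells and 6.21-fold in siHP1γ cells, a term of -1.003 ± 0.15 (SE, edgeR adjusted p = 0.00104) with a 95% interval of -1.31 to -0.69. The gene overlaps NCBP2L in the annotation.

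DDIT4, an inhibitor of mTORC1, stood at 92.5, 102 and 96.9 CPM with Eth and 194, 182 and 213 CPM with Dex in siNS cells. The siHP1γ libraries had 91.8, 99.5 and 91.2 CPM with Eth and 109, 105 and 129 CPM with Dex. The Eth libraries overlapped and the Dex libraries were lower after depletion, with Dex responses of log2 1.01 ± 0.09 in siNS cells and 0.28 ± 0.09 in siHP1γ cells and a term of -0.73 ± 0.13 (SE, edgeR adjusted p = 0.00404). PER1, a clock gene, stood at 11.1, 15.7 and 13.5 CPM with Eth and 84.1, 68.9 and 82.5 CPM with Dex in siNS cells and at 18.3, 20.9 and 19.5 CPM with Eth and 64.8, 69.03 and 70.2 CPM with Dex in siHP1γ cells. Every Dex library lay above every Eth library in both cell states. With Eth the siHP1γ libraries lay above the siNS libraries (log2 0.54 ± 0.12, edgeR adjusted p = 0.000981). With Dex the 2 groups overlapped (log2 -0.21 ± 0.09, edgeR adjusted p = 0.0898). PER1 had Dex responses of log2 2.54 ± 0.11 in siNS cells and 1.79 ± 0.10 in siHP1γ cells and a term of -0.75 ± 0.15 (SE, edgeR adjusted p = 0.0195). KLF9, a zinc finger transcription factor, had responses of log2 2.82 ± 0.10 in siNS cells and 2.13 ± 0.10 in siHP1γ cells and a term of -0.69 ± 0.14 (SE, edgeR adjusted p = 0.0229). Both stayed induced in the 2 cell states. The terms of PER1 and KLF9 each passed in 6 of 12 fits that left out 1 library and were lost without siNS Eth replicates 1 and 3, siNS Dex replicates 1 and 3 or siHP1γ Eth replicates 2 and 3. Without the 2 libraries of lowest GC content the term of PER1 was -0.59 (adjusted p 0.157) and that of KLF9 -0.75 (adjusted p 0.0318). The transcriptional repressor BCL6 stood at 26.2, 33.9 and 30.3 CPM with Eth and 79.8, 66.1 and 80.7 CPM with Dex in siNS cells and at 34.99, 34.6 and 32.5 CPM with Eth and 53.4, 50.8 and 49.4 CPM with Dex in siHP1γ cells. With Dex the siHP1γ libraries lay below the siNS libraries. It had responses of log2 1.32 ± 0.10 in siNS cells and 0.59 ± 0.10 in siHP1γ cells and a term of -0.73 ± 0.14 (SE, edgeR adjusted p = 0.0107), which passed in 9 of 12 fits that left out 1 library and was lost without siNS Eth replicate 1 or siNS Dex replicates 1 and 3. SGK1, a kinase that regulates ion transport, had responses of log2 1.39 ± 0.08 in siNS cells and 0.84 ± 0.08 in siHP1γ cells and a term of -0.55 ± 0.11 (SE, edgeR adjusted p = 0.0209), which passed in 7 of 12 fits that left out 1 library and was lost without siNS Eth replicates 1 and 3, siNS Dex replicates 1 and 3 or siHP1γ Eth replicate 2. It passed under both alternatives for base composition. Other listed genes did not pass. FKBP5, a co-chaperone of GR, had a term of -0.44 ± 0.10 (SE, edgeR adjusted p = 0.0588) and TFCP2L1 one of -0.77 ± 0.25 (SE, edgeR adjusted p = 0.131). With the offsets FKBP5 passed at -0.49 (edgeR adjusted p = 0.00334), as did BIRC3 of the same list at -0.75 (adjusted p = 0.000116).

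**Figure D3:**
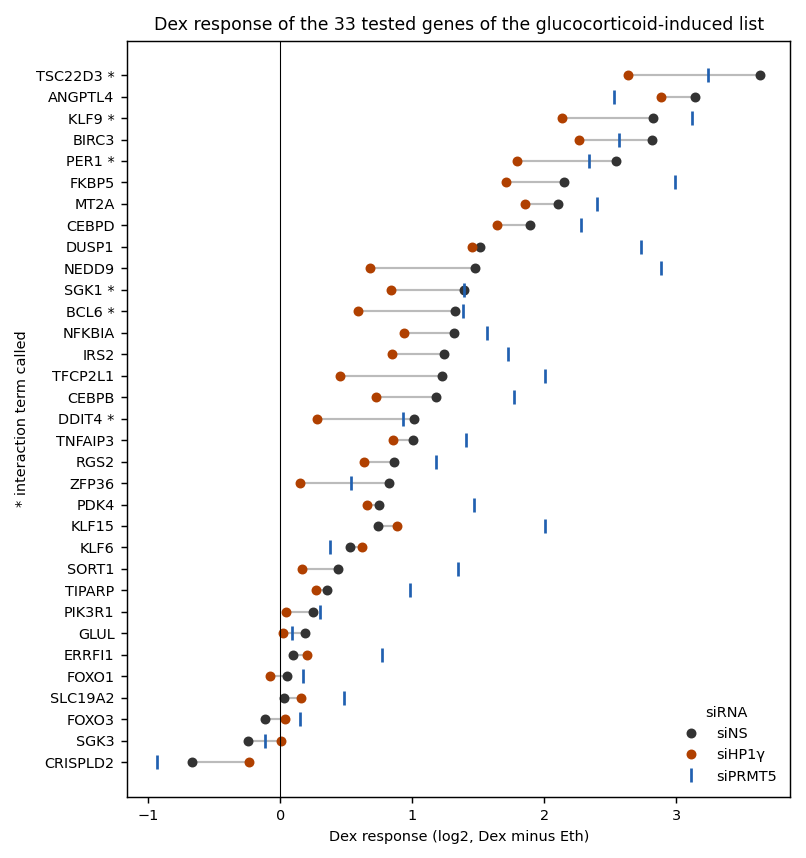
Log2 Dex response (x) of the 33 tested genes known to be induced by glucocorticoids, 1 row per gene, with dots for siNS and siHP1γ cells, a tick for siPRMT5 cells and an asterisk where the interaction term passed. The siHP1γ dot lies left of the siNS dot for 26 of the 33 genes, and the medians are 1.01 in siNS and 0.66 in siHP1γ cells.

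Of 9 tested genes of metallothioneins, small proteins that bind zinc and copper, and of zinc transport, 2 passed below 0, MT1X and MT1E, and DESeq2 called 1 (it gave no adjusted p for MT1X). Over all genes tested 0.281% passed below 0, and DESeq2 called 1.95% in either direction. MT1X and MT1E lie in a cluster on chromosome 16 whose members are near-identical, so that reads may be split between copies and the values of single members are uncertain. The 250 bases before the start of MT1X and of MT2A are shown because both hold several matches to the metal response element. Its core letters, TGCACNC or TGCGCNC on either strand, are set in capitals. The windows were taken from RefSeq (GRCh38.p14) on the plus strand.

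MT1X, chr16:56682220-56682469: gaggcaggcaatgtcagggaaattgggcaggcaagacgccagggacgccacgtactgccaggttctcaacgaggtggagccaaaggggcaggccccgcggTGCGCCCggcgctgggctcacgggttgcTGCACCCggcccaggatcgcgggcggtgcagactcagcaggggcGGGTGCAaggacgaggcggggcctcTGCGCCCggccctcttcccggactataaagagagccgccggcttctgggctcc
MT2A, chr16:56608334-56608583: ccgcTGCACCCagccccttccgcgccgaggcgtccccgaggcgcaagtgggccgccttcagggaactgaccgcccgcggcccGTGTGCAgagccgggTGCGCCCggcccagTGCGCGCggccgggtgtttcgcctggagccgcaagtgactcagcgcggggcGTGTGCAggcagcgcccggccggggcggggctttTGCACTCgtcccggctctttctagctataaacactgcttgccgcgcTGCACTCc

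The MT1X window holds 4 matches, 3 on the plus strand and 1 on the minus strand, between positions -150 and -53 from the start, and the MT2A window holds 7. At least 1 such match occurs in 24.8% of all 35116 RefSeq promoter windows of this length. The share of windows with as many matches as these was not counted. MT1X (chr16:56682470-56684196, plus strand) stood at 6.51, 5.91 and 7.25 CPM with Eth and 40.6, 35.8 and 48.2 CPM with Dex in siNS cells. After HP1γ depletion the values were 8.91, 8.04 and 8.47 CPM with Eth and 19.8, 23.8 and 26.4 CPM with Dex. With Eth the siHP1γ libraries all lay above the siNS libraries and with Dex all below them. Dex raised it 6.35-fold in siNS and 2.75-fold in siHP1γ cells, a term of -1.21 ± 0.24 (SE, edgeR adjusted p = 0.0169) with a 95% interval of -1.69 to -0.72. The term passed in 8 of 12 fits that left out 1 library and was lost without siNS Eth replicate 1, siNS Dex replicate 3 or siHP1γ Eth replicates 1 and 3, and was -1.08 (adjusted p 0.0935) without the 2 libraries of lowest GC content.

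MT1E stood at 94.8, 84.7 and 81.4 CPM with Eth and 519, 484 and 460.2 CPM with Dex in siNS cells and at 86.4, 93.9 and 88.2 CPM with Eth and 350.3, 317 and 308 CPM with Dex in siHP1γ cells. The Eth libraries overlapped and the siHP1γ Dex libraries were all below the siNS Dex libraries. Its Dex responses were log2 2.49 ± 0.08 in siNS cells and 1.86 ± 0.08 in siHP1γ cells, with a term of -0.63 ± 0.11 (SE, edgeR adjusted p = 0.00357) that passed in all 12 fits. MT2A had a term of -0.25 ± 0.10 (SE, edgeR adjusted p = 0.219), with Dex responses of log2 2.10 and 1.85. The median term of the 9 genes was -0.15.

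In the lists of plasminogen activation and matrix proteolysis, of matrix proteins and of TGF-β signalling and YAP targets, 1 gene each passed. PLAT, the tissue-type plasminogen activator (chr8:42174718-42207709, minus strand), stood at 37.2, 46.3 and 41.5 CPM with Eth and 145, 137 and 166 CPM with Dex in siNS cells. The depleted cells had 24.3, 22.4 and 22.1 CPM with Eth and 38.4, 42.7 and 44.2 CPM with Dex. The siHP1γ libraries lay below the siNS libraries with Eth and further below with Dex, where they reached only about the Eth level of siNS cells. Dex raised PLAT 3.58-fold in siNS and 1.82-fold in siHP1γ cells, a term of -0.97 ± 0.14 (SE, edgeR adjusted p = 0.000872) with a 95% interval of -1.27 to -0.68. It was the 1 gene of 15 tested for plasminogen activation and matrix proteolysis whose term passed, where 0.281% of all genes tested passed below 0. At an unadjusted p under 0.05 this list had 3 below 0 and 1 above 0 (26.7%, against 17.2% of all genes). DESeq2 called 2 of them (13.3%, against 1.95%). The urokinase gene PLAU had a term of -0.37 ± 0.10 (SE, edgeR adjusted p = 0.0932).

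LTBP1, which binds latent TGF-β in the matrix, stood at 12.3, 11.5 and 14.1 CPM with Eth and 46.6, 40.96 and 47.9 CPM with Dex in siNS cells. In siHP1γ cells it stood at 29.9, 33.3 and 29.4 CPM with Eth and 57.5, 62.8 and 58.9 CPM with Dex. Both siHP1γ levels lay above the siNS level of the same treatment. Its Dex responses were log2 1.84 ± 0.10 in siNS cells and 0.95 ± 0.08 in siHP1γ cells, with a term of -0.89 ± 0.13 (SE, edgeR adjusted p = 0.000865). FN1, fibronectin, stood at 137, 159 and 134 CPM with Eth and 481, 486 and 469 CPM with Dex in siNS cells. The siHP1γ libraries had 244, 207 and 219 CPM with Eth and 386, 464 and 384 CPM with Dex. It was higher with Eth after depletion, while with Dex the siHP1γ libraries lay below the siNS libraries. The term was -0.86 ± 0.13 (SE, edgeR adjusted p = 0.000872). SDC3, a heparan sulfate proteoglycan, stood at 53.98, 60.6 and 55.1 CPM with Eth and 97.8, 99.7 and 104 CPM with Dex in siNS cells and at 61.3, 51.2 and 55.2 CPM with Eth and 46.7, 55.05 and 55.7 CPM with Dex in siHP1γ cells. It rose with Dex in siNS cells, and in siHP1γ cells its libraries overlapped between treatments, with Dex responses of log2 0.83 ± 0.08 in siNS cells and -0.09 ± 0.08 in siHP1γ cells and a term of -0.92 ± 0.12 (SE, edgeR adjusted p = 0.000549). SDC3 and FBLN5 belong to none of these lists. FBLN5, of elastic fibres, had a term of -0.72 ± 0.16 (SE, edgeR adjusted p = 0.0358), which passed in 3 of 12 fits that left out 1 library and was lost without siNS Eth replicates 1 and 3, siNS Dex replicates 1 and 3, siHP1γ Eth replicates 1, 2 and 3 or siHP1γ Dex replicates 2 and 3. In the lists, FN1 was the 1 gene that passed of 23 matrix proteins (median term -0.20) and of 11 mesenchymal markers. LTBP1 was the 1 that passed of 26 genes of TGF-β signalling and YAP targets. Over all genes tested 0.281% passed below 0. At an unadjusted p under 0.05 the matrix list had 7 below 0 and 2 above 0 (39.1%, against 17.2% of all genes). The shares of the other 2 lists were 18.2% and 19.2%. DESeq2 called 13%, 9.09% and 3.85% of the 3 lists, against 1.95% of all genes.

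The largest negative term was that of VSTM2L (chr20:37903111-37945350, plus strand). It stood at 0.773, 0.815 and 0.932 CPM with Eth and 18.8, 18.6 and 19.1 CPM with Dex in siNS cells. After HP1γ depletion the values were 2.12, 2.34 and 2.43 CPM with Eth and 12.99, 13.9 and 16.1 CPM with Dex. The siHP1γ libraries lay above the siNS libraries with Eth and below them with Dex. Dex raised it 22.1-fold in siNS and 6.17-fold in siHP1γ cells, a term of -1.84 ± 0.28 (SE, edgeR adjusted p = 0.00107) with a 95% interval of -2.42 to -1.26. Its level with Eth in siNS cells was the lowest of the genes described here, so the fold depends on few counts. KRT7, a keratin of simple epithelia, stood at 1.77, 3.57 and 3.52 CPM with Eth and 12.5, 11.2 and 10.97 CPM with Dex in siNS cells and at 6.04, 7.29 and 6.30 CPM with Eth and 6.38, 10.5 and 11.1 CPM with Dex in siHP1γ cells. One siNS Eth library lay apart from the other 2, and the siHP1γ groups overlapped. Its term was -1.47 ± 0.28 (SE, edgeR adjusted p = 0.0153), which was lost without siNS Eth replicate 1, siNS Dex replicate 1 or siHP1γ Eth replicate 2, and was -0.98 (adjusted p 0.0785) without the 2 libraries of lowest GC content. RGCC, a regulator of the cell cycle, stood at 14.1, 17.4 and 16.6 CPM with Eth and 45.05, 40.5 and 45.3 CPM with Dex in siNS cells and at 18.5, 18.9 and 20.3 CPM with Eth and 24.2, 27.5 and 27.2 CPM with Dex in siHP1γ cells. The Dex libraries of siHP1γ cells all lay below those of siNS cells, with Dex responses of log2 1.44 ± 0.10 in siNS cells and 0.45 ± 0.10 in siHP1γ cells and a term of -0.99 ± 0.15 (SE, edgeR adjusted p = 0.000872).

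**Figure D4:**
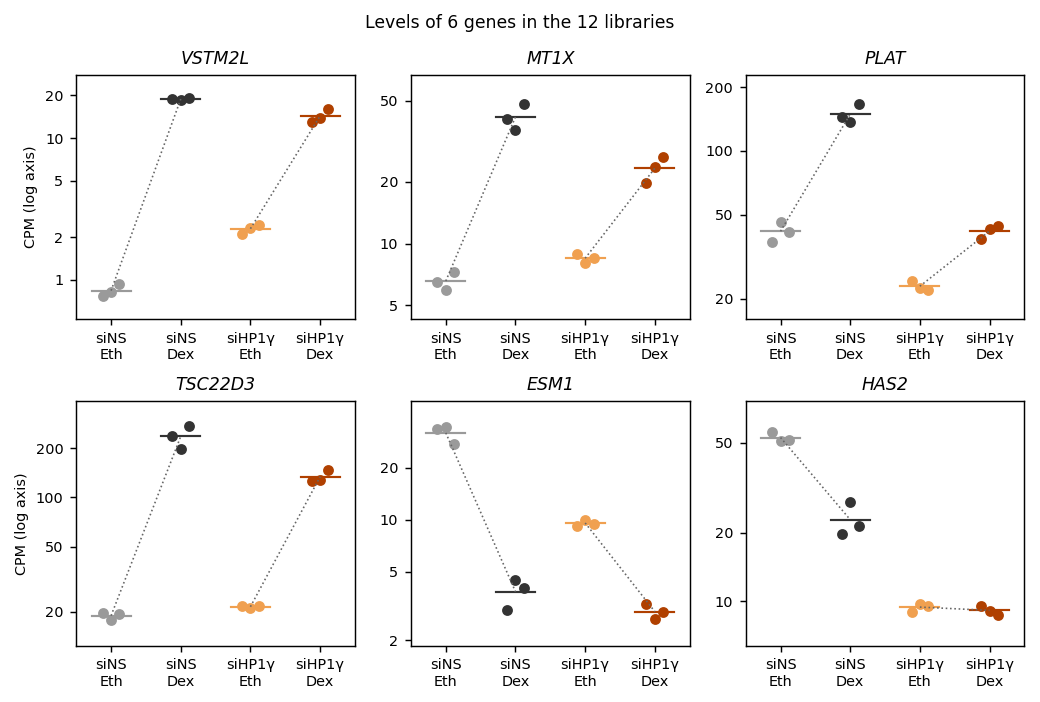
CPM (log axis) of VSTM2L, MT1X, PLAT, TSC22D3, ESM1 and HAS2 in the 12 libraries by siRNA and treatment, with dots for libraries and bars for group means. The rise with Dex is steeper in siNS than in siHP1γ cells for the first 4 genes (22.1-fold against 6.17-fold for VSTM2L), and the fall with Dex is steeper in siNS cells for ESM1 and HAS2 (2.31-fold for HAS2 in siNS cells).

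The other genes below 0 that were called induced in siNS cells were gathered after their values were seen, under no list. AKAP12, a scaffold of protein kinase A, stood at 298, 336 and 303 CPM with Eth and 1272, 1440.4 and 1462 CPM with Dex in siNS cells. The depleted cells had 445, 421 and 415 CPM with Eth and 1025, 1099 and 999.8 CPM with Dex. It was higher with Eth and lower with Dex after depletion, with no overlap, and its term was -0.87 ± 0.12 (SE, edgeR adjusted p = 0.000614). The terms of ABLIM3, an actin-binding LIM protein, and of the membrane protein HEG1 were -0.67 ± 0.09 (SE, edgeR adjusted p = 0.000614) and -0.77 ± 0.13 (SE, edgeR adjusted p = 0.00357). HEG1 stood at 135, 135 and 134 CPM with Eth and 305, 281 and 293 CPM with Dex in siNS cells and at 166, 135 and 149 CPM with Eth and 190.3, 209 and 174 CPM with Dex in siHP1γ cells, where all Dex libraries lay below those of siNS cells. EZR, ezrin, an abundant linker of membrane and actin, stood at 607, 598 and 649.6 CPM with Eth and 1062, 1091 and 1049 CPM with Dex in siNS cells and at 513, 528 and 532 CPM with Eth and 649.95, 669 and 696 CPM with Dex in siHP1γ cells. Every siHP1γ library lay below the siNS libraries of the same treatment, and the term was -0.43 ± 0.08 (SE, edgeR adjusted p = 0.0135), which passed in 10 of 12 fits that left out 1 library and was lost without siNS Eth replicate 1 or siHP1γ Eth replicate 3. The guanine nucleotide exchange factors AKAP13 and ARHGEF17 had terms of -0.66 and -0.59, and BAIAP2, at the membrane and actin, one of -0.64. The edgeR adjusted p were 0.0341, 0.0464 and 0.0268. These terms passed in 4, 2 and 3 of 12 fits that left out 1 library. Without the 2 libraries of lowest GC content they did not pass (edgeR adjusted p 0.14, 0.269 and 0.196). The 3 genes were called induced in siNS cells and not in siHP1γ cells. The clone-named gene AL596244.1, which has no symbol match in the annotation, stood at 10.2, 9.99 and 7.98 CPM with Eth and 46.9, 39.4 and 47.9 CPM with Dex in siNS cells and at 9.23, 8.04 and 8.02 CPM with Eth and 19.05, 19.8 and 19.6 CPM with Dex in siHP1γ cells, with a term of -1.05 ± 0.18 (SE, edgeR adjusted p = 0.00404). The mitochondrial carrier UCP2 had one of -0.63 ± 0.11 (SE, edgeR adjusted p = 0.00539). The rest were TRERF1, ZFHX3, CABIN1, ADPRHL1, SEC14L1, ZHX3, ZMYND8 and CPPED1, with terms from -0.72 to -0.42. With the offsets ARHGEF17, ZFHX3, CABIN1, ADPRHL1, SEC14L1 and ZHX3 did not pass, with terms from -0.42 to -0.22. In the list of integrins, migration and cytoskeleton, 0 of 23 genes passed, where 0.399% of all genes tested did. At an unadjusted p under 0.05 there were 7 (30.4%, against 17.2% of all genes), and DESeq2 called 3 (13%, against 1.95%).

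Of the genes repressed by Dex in siNS cells, 11 were repressed less after HP1γ depletion, led by ESM1 and HAS2. ESM1, the proteoglycan endocan (chr5:54977867-55022671, minus strand), stood at 33.7, 34.3 and 27.4 CPM with Eth and 3.00, 4.47 and 3.99 CPM with Dex in siNS cells. In siHP1γ cells it stood at 9.23, 10.01 and 9.46 CPM with Eth and 3.23, 2.64 and 2.91 CPM with Dex. With Eth all siHP1γ libraries lay below all siNS libraries, and with Dex the groups overlapped. Dex lowered it 8.38-fold in siNS and 3.24-fold in siHP1γ cells, a term of 1.37 ± 0.23 (SE, edgeR adjusted p = 0.00299) with a 95% interval of 0.91 to 1.84. It was the 1 gene that passed of 17 for endothelial growth factors and angiogenesis, where 0.118% of all genes tested passed above 0. At an unadjusted p under 0.05 this list had 3 above 0 and 3 below 0 (35.3%, against 17.2% of all genes). DESeq2 called 1, below 0 (5.88%, against 1.95%). HAS2, a hyaluronan synthase (chr8:121612116-121641440, minus strand), stood at 55.6, 50.7 and 51.5 CPM with Eth and 19.8, 27.3 and 21.5 CPM with Dex in siNS cells. The siHP1γ libraries had 9.01, 9.73 and 9.55 CPM with Eth and 9.52, 9.09 and 8.74 CPM with Dex. All siHP1γ libraries lay below the lowest siNS library, and their Dex and Eth libraries overlapped. Dex lowered HAS2 2.31-fold in siNS cells, and the response in siHP1γ cells was log2 -0.05 ± 0.13, a term of 1.16 ± 0.16 (SE, edgeR adjusted p = 0.000614) with a 95% interval of 0.83 to 1.49. It overlaps the antisense gene HAS2-AS1, and the strand setting of the counting is not given in the sources used here. HAS2 was the 1 gene that passed of 11 for hyaluronan (median term 0.11). At an unadjusted p under 0.05 this list had 2 above 0 and 0 below 0 (18.2%), and DESeq2 called 1 (9.09%). UAP1, which makes a sugar precursor, had a term of 0.31 ± 0.09 (SE, edgeR adjusted p = 0.113).

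ADAMTS6, a secreted metalloprotease, stood at 438, 411 and 412 CPM with Eth and 212, 212 and 219 CPM with Dex in siNS cells. After HP1γ depletion the values were 404, 419 and 441 CPM with Eth and 339.8, 321 and 307 CPM with Dex. The Eth libraries overlapped and the siHP1γ Dex libraries lay above the siNS Dex libraries, with Dex responses of log2 -0.97 ± 0.06 in siNS cells and -0.38 ± 0.06 in siHP1γ cells and a term of 0.58 ± 0.09 (SE, edgeR adjusted p = 0.00108). FGF5, a growth factor, stood at 89.6, 78.4 and 77.4 CPM with Eth and 33.4, 34.2 and 37.000 CPM with Dex in siNS cells and at 48.5, 54.5 and 52.9 CPM with Eth and 41.8, 38.03 and 32.2 CPM with Dex in siHP1γ cells. After depletion the Eth libraries were lower and the Dex libraries overlapped with those of siNS cells. It had Dex responses of log2 -1.23 ± 0.11 in siNS cells and -0.47 ± 0.11 in siHP1γ cells and a term of 0.76 ± 0.15 (SE, edgeR adjusted p = 0.0229), which passed in 6 of 12 fits that left out 1 library and was lost without siNS Eth replicate 1, siNS Dex replicates 1 and 2, siHP1γ Eth replicates 1 and 3 or siHP1γ Dex replicate 1. HBEGF, a ligand of the EGF receptor, averaged 227 CPM with Eth and 90.8 CPM with Dex in siNS cells, and 277 and 150 CPM in siHP1γ cells. The change with Dex was thus of like size in CPM, -136 in siNS and -127 in siHP1γ cells. Its responses were log2 -1.32 ± 0.07 in siNS cells and -0.89 ± 0.07 in siHP1γ cells. The term of HBEGF was 0.44 ± 0.10 (SE, edgeR adjusted p = 0.0398), which passed in 3 of 12 fits that left out 1 library. It was lost without siNS Eth replicates 1 and 3, siNS Dex replicates 1, 2 and 3, siHP1γ Eth replicates 2 and 3 or siHP1γ Dex replicates 2 and 3. TMEM158 stood at 112, 113 and 107 CPM with Eth and 53.8, 35.95 and 47.7 CPM with Dex in siNS cells and at 138, 144 and 137 CPM with Eth and 115, 85.6 and 99.4 CPM with Dex in siHP1γ cells. Every siHP1γ library lay above the siNS libraries of the same treatment. It had responses of log2 -1.26 ± 0.11 in siNS cells and -0.48 ± 0.10 in siHP1γ cells and a term of 0.78 ± 0.15 (SE, edgeR adjusted p = 0.0169), which was lost without siHP1γ Eth replicate 1 or 3. Without the 2 libraries of lowest GC content it was 0.67 (adjusted p 0.0782).

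JUN, a subunit of AP-1, stood at 359, 399 and 395 CPM with Eth and 158, 158 and 153 CPM with Dex in siNS cells. The depleted cells had 379.9, 339 and 354 CPM with Eth and 182, 216 and 223 CPM with Dex. The Eth groups overlapped and the siHP1γ Dex libraries lay above the siNS Dex libraries. The Dex responses were log2 -1.30 ± 0.08 in siNS cells and -0.79 ± 0.08 in siHP1γ cells, a term of 0.51 ± 0.11 (SE, edgeR adjusted p = 0.0433). The term passed in only 2 of 12 fits, those without siNS Eth replicate 2 or siHP1γ Dex replicate 1, yet it was 0.65 (adjusted p 0.0062) without the 2 libraries of lowest GC content and 0.68 (adjusted p 1.55e-05) with the offsets. JUN was the 1 gene that passed of 21 AP-1 subunits and MAP kinase phosphatases, where 0.118% of all genes tested passed above 0. At an unadjusted p under 0.05 this list had 1 above 0 and 6 below 0 (33.3%, against 17.2% of all genes). DESeq2 called 1 above 0 and 1 below 0 (9.52%, against 1.95%). FOSL2 had a term of -0.37 ± 0.09 (SE, edgeR adjusted p = 0.0595).

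CXCL8, which encodes interleukin-8 (chr4:73740519-73743716, plus strand), is an NF-κB and AP-1 target, and its upstream window is shown because it holds 1 match to the AP-1 letters TGANTCA, in capitals, at position -137 from the start (RefSeq, GRCh38.p14, plus strand). The RefSeq start, just after the last base shown, lies inside the span given above, which begins at another start in GENCODE 44.

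CXCL8, chr4:73740319-73740568: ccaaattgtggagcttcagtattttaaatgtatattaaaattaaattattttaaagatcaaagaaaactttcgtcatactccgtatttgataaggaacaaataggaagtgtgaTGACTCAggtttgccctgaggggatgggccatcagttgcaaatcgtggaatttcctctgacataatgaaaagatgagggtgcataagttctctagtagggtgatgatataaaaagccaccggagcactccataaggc

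CXCL8 stood at 26.2, 25.8 and 23.1 CPM with Eth and 11.9, 11.98 and 11.9 CPM with Dex in siNS cells. In siHP1γ cells it stood at 40.2, 47.6 and 46.1 CPM with Eth and 41.3, 30.3 and 34.4 CPM with Dex. With Dex the siHP1γ libraries lay far above the siNS libraries, and siHP1γ cells were also higher with Eth. The Dex responses were log2 -1.07 ± 0.12 in siNS cells and -0.33 ± 0.10 in siHP1γ cells, and the term was 0.73 ± 0.16 (SE, edgeR adjusted p = 0.0361). It passed in 4 of 12 fits that left out 1 library and was lost without siNS Eth replicates 1 and 3, siNS Dex replicates 1, 2 and 3, siHP1γ Eth replicates 1 and 3 or siHP1γ Dex replicate 1. It was 0.32 (adjusted p 0.36) with the GC and length offsets and 0.58 (adjusted p 0.206) without the 2 libraries of lowest GC content. CXCL8 was the 1 gene that passed of 14 cytokines and chemokines, where 0.118% of all genes tested passed above 0. At an unadjusted p under 0.05 this list had 3 above 0 and 1 below 0 (28.6%, against 17.2% of all genes). DESeq2 called 1 (7.14%, against 1.95%). In this list CXCL1 had a term of 0.81 ± 0.22 (SE, edgeR adjusted p = 0.0929) and IL11 one of 0.38 ± 0.16 (SE, edgeR adjusted p = 0.24).

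For 17 genes the term passed although Dex changed them in neither cell state by the rule above. Those below 0 included the ephrin receptor EPHB2, the semaphorin receptor PLXNA1, the chromatin remodeller CHD3, the repressor CIC, the O-glycan enzymes GALNT10 and ST3GAL1, CAPN5, MARK4 and the pseudogene PHC1P1, with terms from -0.80 to -0.49. With the GC and length offsets GALNT10 passed of those named, at -0.34 (adjusted p 0.0288), and the others did not, with EPHB2 at -0.31 (adjusted p 0.317), PLXNA1 at -0.38 (adjusted p 0.0561), CIC at -0.26 (adjusted p 0.249) and CHD3 at -0.23 (adjusted p 0.209). The 7 above 0 were cytochrome c (CYCS), RPL22L1, RPL22P13, SUGT1, TEX30, UTP23 and AC093014.1, with terms from 0.55 to 0.83. PLCXD2, PKIA and CDK17 were repressed in siNS cells and had terms of 0.58, 0.53 and 0.54. CYCS, RPL22L1 and the 2 pseudogenes share near-identical copies elsewhere, and their counts may be split between them. Of the 61 genes 36 overlap another annotated gene.

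Several of these genes had terms among the largest of their sign. UTP23, of ribosomal RNA processing, stood at 78.5, 62.2 and 71.5 CPM with Eth and 61.6, 60.8 and 58.9 CPM with Dex in siNS cells and at 44.7, 53.9 and 48.5 CPM with Eth and 74.5, 63.2 and 57.5 CPM with Dex in siHP1γ cells. Its term was 0.63 ± 0.14 (SE, edgeR adjusted p = 0.0439), which passed in 3 of 12 fits that left out 1 library and was lost without siNS Eth replicates 1 and 3, siNS Dex replicates 1, 2 and 3, siHP1γ Eth replicates 1 and 3 or siHP1γ Dex replicates 1 and 2. SUGT1, a co-chaperone of HSP90, stood at 84.5, 79.3 and 88.5 CPM with Eth and 67.2, 70.3 and 62.9 CPM with Dex in siNS cells and at 60.2, 66.5 and 63.5 CPM with Eth and 85.3, 68.2 and 71.3 CPM with Dex in siHP1γ cells. Its term was 0.58 ± 0.13 (SE, edgeR adjusted p = 0.0473), which passed in 3 of 12 fits that left out 1 library and was lost without siNS Eth replicates 1 and 3, siNS Dex replicates 1, 2 and 3, siHP1γ Eth replicates 1, 2 and 3 or siHP1γ Dex replicate 1. TEX30 stood at 81.2, 71.7 and 79.8 CPM with Eth and 61.2, 66.3 and 57.5 CPM with Dex in siNS cells and at 62.99, 72.1 and 71.6 CPM with Eth and 91.1, 74.6 and 78.2 CPM with Dex in siHP1γ cells. Its term was 0.57 ± 0.12 (SE, edgeR adjusted p = 0.0361), which passed in 4 of 12 fits that left out 1 library and was lost without siNS Eth replicates 1 and 3, siNS Dex replicates 1 and 3, siHP1γ Eth replicates 1, 2 and 3 or siHP1γ Dex replicate 1. In siNS cells the Dex libraries of all 3 genes lay below the Eth libraries. RPL22P13 stood at 49.1, 51.98 and 52.1 CPM with Eth and 41.2, 42.9 and 37.7 CPM with Dex in siNS cells and at 27.7, 33.4 and 32.4 CPM with Eth and 36.1, 41.2 and 40.9 CPM with Dex in siHP1γ cells, with a term of 0.67 ± 0.15 (SE, edgeR adjusted p = 0.0452) that passed in 2 of 12 fits that left out 1 library and was lost without siNS Eth replicates 1 and 3, siNS Dex replicates 1, 2 and 3, siHP1γ Eth replicates 1, 2 and 3 or siHP1γ Dex replicates 2 and 3. AC093014.1 stood at 26.1, 23.7 and 25.1 CPM with Eth and 22.9, 21.2 and 17.8 CPM with Dex in siNS cells and at 15.4, 15.3 and 17.7 CPM with Eth and 28.5, 20.3 and 21.999 CPM with Dex in siHP1γ cells, with a term of 0.83 ± 0.17 (SE, edgeR adjusted p = 0.0276) that passed in 6 of 12 fits that left out 1 library and was lost without siNS Eth replicates 1 and 3, siNS Dex replicate 3, siHP1γ Eth replicates 1 and 2 or siHP1γ Dex replicate 1. In siHP1γ cells the Dex libraries of both lay above the Eth libraries, and in siNS cells below them. PHC1P1 stood at 10.6, 10.6 and 10.98 CPM with Eth and 11.8, 14.8 and 13.97 CPM with Dex in siNS cells and at 23.8, 18.5 and 17.7 CPM with Eth and 14.5, 13.5 and 15.2 CPM with Dex in siHP1γ cells, with a term of -0.80 ± 0.17 (SE, edgeR adjusted p = 0.0382) that passed in 5 of 12 fits that left out 1 library and was lost without siNS Eth replicates 1 and 3, siNS Dex replicates 2 and 3, siHP1γ Eth replicate 1 or siHP1γ Dex replicates 1 and 2. Its Dex libraries lay above the Eth libraries in siNS cells and below them in siHP1γ cells. PLCXD2 stood at 63.3, 61.9 and 56.3 CPM with Eth and 30.3, 29.5 and 28.5 CPM with Dex in siNS cells and at 33.4, 33.2 and 35.4 CPM with Eth and 26.8, 26.2 and 21.2 CPM with Dex in siHP1γ cells. Its term was 0.58 ± 0.13 (SE, edgeR adjusted p = 0.0398), which passed in 2 of 12 fits that left out 1 library and was lost without siNS Eth replicates 1 and 3, siNS Dex replicates 1, 2 and 3, siHP1γ Eth replicates 1, 2 and 3 or siHP1γ Dex replicates 1 and 2.

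The levels behind the term differed between treatments. With Eth, 25 of the 43 genes below 0 were higher in siHP1γ than in siNS cells (16.5% of genes tested were) and 4 lower (15.2%), whereas with Dex 2 were higher (11.7%) and 21 lower (12.3%). Of the 18 genes above 0, with Eth 3 were higher and 11 lower, and with Dex 7 were higher and 2 lower. These 4 comparisons share libraries with the term and describe its parts. MT1E, DDIT4 and SDC3 were not called different with Eth and were lower with Dex, while FN1, TRERF1 and EPHB2 were higher with Eth and not called with Dex.

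The siPRMT5 libraries gave the Dex response under another depletion. Of the 43 genes below 0, 26 were called induced in siPRMT5 cells (2.69% of genes tested), with a median response of log2 0.84 beside 1.02 in siNS and 0.43 in siHP1γ cells. Of the 18 above 0, 8 were called repressed (2.75%), with medians of log2 -0.45, -0.97 and -0.36. A direct test of the siHP1γ against the siPRMT5 response passed for 321 genes (2.10% of genes tested), among them 25 of the 61. These were 22 of the genes below 0 and the genes HBEGF, JUN and PLCXD2 above 0. This test shares the 6 siHP1γ libraries with the interaction term. RGCC responded with log2 2.16 in siPRMT5 cells, a difference of -1.71 ± 0.14 (SE; edgeR adjusted p = 2.08e-08) for siHP1γ minus siPRMT5. MT1E differed by -1.40 ± 0.11 (adjusted p = 6.06e-09) and LTBP1 by -1.11 ± 0.12 (adjusted p = 2.90e-06). FN1, HAS2 and SDC3 were not called different between the depletions. Their siPRMT5 responses were log2 0.80, -0.08 and 0.08, beside 0.88, -0.05 and -0.09 in siHP1γ cells.

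The siPRMT5 response also gave a choice of Dex genes whose contrast used the 6 siPRMT5 libraries, although the fit behind it took its filter and its estimate of spread from all 18 libraries. The 412 genes induced by Dex in siPRMT5 cells had a median Dex response of log2 0.66 in siNS cells and 0.49 in siHP1γ cells. Their median term was -0.16, and 280 of them (68.0%) had a term below 0, against 51.6% of all genes tested. The term passed below 0 for 26 and above 0 for 0 by edgeR, against 43 and 18 of all 15298. At an unadjusted p under 0.05 there were 112 and 21, against 1388 and 1248, and DESeq2 called 42 and 1, against 197 and 101. The 420 genes repressed in siPRMT5 cells had medians of log2 -0.42 and -0.40 and a median term of 0.01, and 8 passed above 0 and 0 below 0 by edgeR, with 53 and 29 at an unadjusted p under 0.05, and DESeq2 called 11 and 1. Without the 2 libraries of lowest GC content the median terms were -0.19 and 0.05, and with the offsets -0.13 and 0.10.

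No term passed among 17 NF-κB subunits and feedback genes, 13 genes of IGF signalling (median term -0.30), 23 genes of integrins and migration, 23 interferon-stimulated genes (median 0.16) or 24 of cholesterol synthesis. None passed among 17 genes of the integrated stress response, 24 of mitosis, 25 of DNA replication or 19 p53 targets, and none among 18 HP1 and H3K9 methylation genes, 25 genes of GR and its coregulators (median -0.20) or 7 luminal markers. Over these lists together, 238 genes with the 2 lists of other cell types below, edgeR called 0. An unadjusted p under 0.05 was reached by 66 (27.7%, against 17.2% of all genes), and DESeq2 called 17 (7.14%, against 1.95%). The lists differed in this. Among GR and its coregulators 12 of 25 reached the unadjusted limit (48%), 10 below 0 and 2 above 0, and DESeq2 called 4 (16%). In IGF signalling 5 of 13 did (38.5%), 5 below 0 and 0 above 0, and DESeq2 called 2 (15.4%). In mitosis 2 of 24 did (8.33%), and DESeq2 called 0. With the GC and length offsets BIRC3 passed at -0.75 (edgeR adjusted p = 0.000116), FKBP5 at -0.49 (adjusted p = 0.00334) and GINS2, of DNA replication, at 0.46 (adjusted p = 0.0185). IGFBP3 had a term of -0.41 ± 0.10 (SE, edgeR adjusted p = 0.0671), ITGA5 one of -0.42 ± 0.10 (SE, edgeR adjusted p = 0.0588), VCL one of -0.36 ± 0.09 (SE, edgeR adjusted p = 0.0588), the coactivator EP300 one of -0.56 ± 0.16 (SE, edgeR adjusted p = 0.1) and BIRC3 one of -0.55 ± 0.16 (SE, edgeR adjusted p = 0.103). Of 12 markers of leukocytes and endothelium 2 were expressed enough to be tested, with a summed level of 2.54 to 3.94 CPM in siNS Eth, 5.83 to 7.16 in siNS Dex, 3.78 to 5.33 in siHP1γ Eth and 6.53 to 6.75 in siHP1γ Dex libraries. Of 10 fibroblast markers 2 were tested, with sums of 4.08 to 5.50, 6.97 to 8.07, 11.3 to 12.2 and 7.01 to 11.4 CPM in the same order. Their part in the results was not tested.

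Promoter letters were counted over the genes that passed. RefSeq windows of 250 bases before the start were found for 45 of the 61 genes, 77 windows in all. A palindromic GR element, searched as the letters AGAACA and TGTTCT spaced by 3 bases on either strand, was found in none of the 77 and in 0.00285% of all windows. Its half-site AGAACA or TGTTCT was in 1.3% of the 77 (MARK4), against 12.4% of all windows. The AP-1 letters were in 5.19%, in the windows of CXCL8, BCL6, BAIAP2 and EZR, against 6.57% of all windows. The metal response letters were in 33.8%, from 24 genes, against 24.8%. A match is a description of letters and no match says only that they are not in this window.

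**Figure D5:**
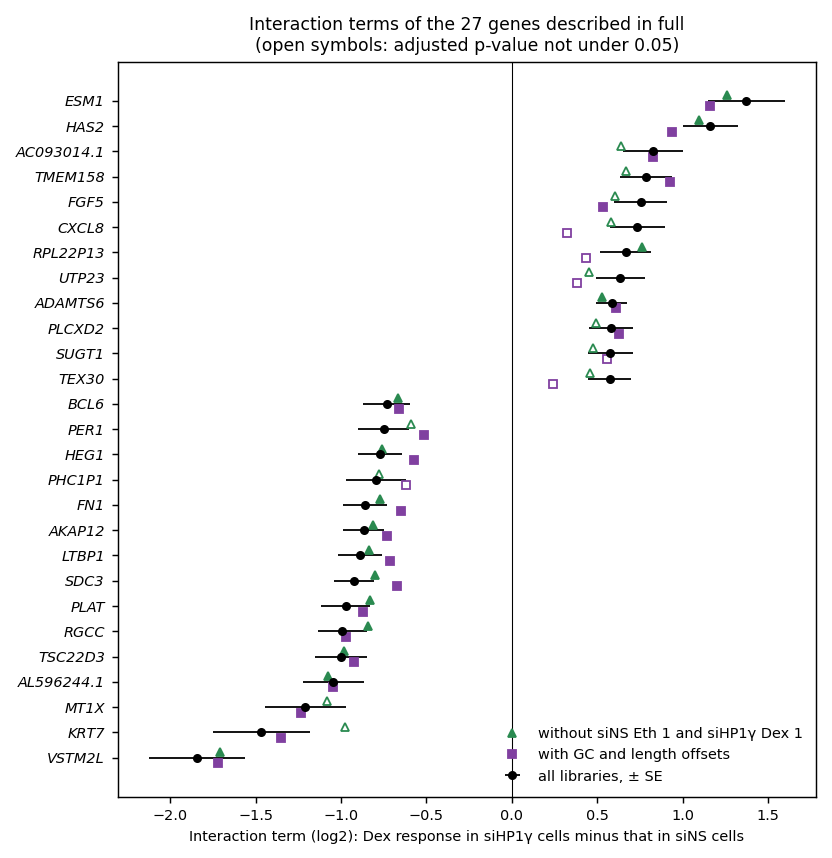
Interaction terms (log2, x) of the 27 genes described at length, 1 row per gene, as black dots with bars of 1 SE, with green triangles for the fit without siNS Eth replicate 1 and siHP1γ Dex replicate 1 and purple squares for the fit with GC and length offsets, where open symbols mark an adjusted p that did not pass. All terms keep their sign, and 23 of the 61 genes pass under both alternatives.

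Across both alternatives for base composition 23 of the 61 genes passed, 4 above 0 and 19 below 0. Each of the 61 kept the sign of its term in both fits. Without the 2 libraries the terms were -1.71 (adjusted p 0.0137) for VSTM2L, -0.98 (adjusted p 0.00754) for TSC22D3, -0.83 (adjusted p 0.00851) for PLAT, 1.26 (adjusted p 0.0445) for ESM1 and 1.09 (adjusted p 0.0062) for HAS2 by edgeR. With the offsets they were -1.72 (adjusted p 0.00101), -0.92 (adjusted p 0.000224), -0.87 (adjusted p 0.00014), 1.16 (adjusted p 0.00838) and 0.94 (adjusted p 0.00118) in the same order. Of the 27 genes with the largest terms, AC093014.1, TMEM158, FGF5, CXCL8, UTP23, PLCXD2, SUGT1, TEX30, KRT7, MT1X, PHC1P1 and PER1 did not pass without the 2 libraries, and CXCL8, RPL22P13, UTP23, SUGT1, TEX30 and PHC1P1 did not pass with the offsets.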

How the data were processed

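RNA from 18 libraries was sequenced by the authors (Lexogen libraries, NextSeq), aligned to hg38 with Bowtie2 2.4.2 and counted with HTSeq 0.9.1. The deposited values are raw read counts per gene symbol, not normalized by the authors. The annotation and strand setting are not given in the sources used here. A deposited table of the authors' own comparisons, made with DESeq2, was not used.

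Of 60642 symbols, 15298 passed filterByExpr. Their counts were scaled by TMM and fitted in one edgeR 4.0.16 quasi-likelihood model of 6 groups (R 4.3.3, 12 residual degrees of freedom). P-values were adjusted by Benjamini and Hochberg over all genes tested. CPM are TMM-scaled. Replicate libraries of one group differed by more than counting noise (chi-square per degree of freedom of 2.10 to 12.3). The largest values were 12.3 for siHP1γ Dex replicates 1 and 3 and 7.38 for siHP1γ Dex replicates 1 and 2. The interaction had no fold limit, and Dex responses needed an adjusted p under 0.01 and 1.5-fold. Genes that passed were named, and those described at length were the 12 largest positive and 15 largest negative terms at a mean of 5 CPM or more, the 5 named markers, and up to 4 members of each list. The members and lists were chosen with earlier results of these data known. The scripts were tested on simulated data. Alternatives were DESeq2 1.42.0, other scalings and filters, a replicate block, 12 libraries alone, libraries left out, and GC and length offsets. Coordinates are hg38 from GENCODE 44, which matched 37182 symbols. Some genes are not reported here.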

Additional observations from a re-analysis of the deposited data

Results flagged for a closer look

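The Dex response differed between siHP1γ and siNS cells by the test of that difference itself (edgeR's quasi-likelihood interaction test) for 61 genes, with terms given here on the log2 scale. The terms above 0 were ESM1 1.37, HAS2 1.16, AC093014.1 0.83, TMEM158 0.78, FGF5 0.76, CXCL8 0.73, RPL22P13 0.67, UTP23 0.63, ADAMTS6 0.58, PLCXD2 0.58, SUGT1 0.58, TEX30 0.57, RPL22L1 0.55, CYCS 0.55, CDK17 0.54, PKIA 0.53, JUN 0.51 and HBEGF 0.44.

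The terms below 0 of 0.80 or larger in size were VSTM2L -1.84, KRT7 -1.47, MT1X -1.21, AL596244.1 -1.05, TSC22D3 -1.003, RGCC -0.99, PLAT -0.97, SDC3 -0.92, LTBP1 -0.89, AKAP12 -0.87, FN1 -0.86 and PHC1P1 -0.80. Those between -0.80 and -0.60 were HEG1 -0.77, PER1 -0.75, BCL6 -0.73, DDIT4 -0.73, ZFHX3 -0.72, FBLN5 -0.72, PLXNA1 -0.71, KLF9 -0.69, TRERF1 -0.68, ABLIM3 -0.67, AKAP13 -0.66, EPHB2 -0.65, BAIAP2 -0.64, MT1E -0.63, UCP2 -0.63, CABIN1 -0.63, MARK4 -0.62 and CAPN5 -0.60. Smaller terms below 0 were ARHGEF17 -0.59, CIC -0.57, ADPRHL1 -0.57, SGK1 -0.55, GALNT10 -0.52, ST3GAL1 -0.50, CHD3 -0.49, SEC14L1 -0.48, ZHX3 -0.46, EZR -0.43, ZMYND8 -0.42 and CPPED1 -0.42.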

How the results depend on the processing

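The count of genes whose Dex response differed (61) changed with the processing more than their direction. DESeq2 called 298 with 18 libraries and 356 with 12, no filter on low counts gave 374, a fold limit of 1.5 gave 39, and leaving out 1 library gave 20 to 186. The 2 libraries of lowest GC content left out gave 27 and the GC and length offsets 75. Other size factors, library size scaling, a filter at 10 counts and the 12 libraries alone gave 60, 60, 62 and 81. A fold limit of 2 gave 194 genes for the Dex response in siNS cells and 106 in siHP1γ cells, and the offsets gave 619 for siHP1γ against siPRMT5. The term of PRMT5 turned from -0.09 to 0.0247 without the 2 libraries of lowest GC content, where it did not pass. Adding a replicate block gave 94 genes. Deviations of same-numbered libraries from their group means correlated at -0.22 to 0.60, above 0.1 for 4 of 18 pairs. For differently numbered libraries they correlated at -0.53 to 0.39, above 0.1 for 9 of 36 pairs. The value of 0.60 was that of siNS Eth replicate 1 and siHP1γ Dex replicate 1, the 2 of lowest GC content. Whether the numbers mark shared handling was not tested. The cause of these changes was not tested. DESeq2 gave no adjusted p for 10 of the 61 genes with 18 libraries and for 4 with 12, VSTM2L was not tested at 10 counts, and 3 libraries a group limit what small terms can show.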
